A study of Mus musculus with 9 samples.

Results

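Glucose transport, glycolysis and glycogen metabolism were followed in mouse hearts through 32 genes chosen by name for their step in these pathways. Earlier results of these data were known when the genes were chosen. All 32 were listed among the 13539 genes with deposited values. Genes whose value came to 10 or more in 3 or more of the 9 libraries were tested, 8543 in all and 31 of the 32. The exception was Pfkfb1, which encodes a form of the enzyme that makes and breaks down fructose 2,6-bisphosphate and is known mainly from liver and skeletal muscle. Its values were 7.98, 6.88 and 9.41 in treated KO hearts, 6.42, 5.30 and 5.29 in treated WT hearts and 10.6, 6.64 and 10.4 in untreated KO hearts. The hearts came from male C57BL/6JOlaHsd mice aged 12 weeks, in 3 groups of 3 libraries. Treated KO hearts lacked OMA1, a protease of the inner mitochondrial membrane that responds to stress, and had received isoproterenol, an agonist of β-adrenergic receptors, at 10 mg/kg per day from implanted pumps over 7 days. Treated WT hearts were wild type and had received the same drug in the same way. Untreated KO hearts lacked OMA1 and had received no drug. The labels do not say whether the untreated mice carried a pump, how the knockout allele was made or which animal each library came from, and untreated WT hearts were not analysed here. The first comparison addresses genotype under adrenergic load, and the second addresses treatment in hearts without OMA1.

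Glucose enters the heart muscle cell through transporters, is trapped by hexokinase as glucose 6-phosphate, and is then either broken down by glycolysis or stored as glycogen. Storage runs through UDP-glucose, the primer protein glycogenin, glycogen synthase and the branching enzyme. Adrenergic stimulation acts through cyclic AMP and protein kinase A to activate phosphorylase kinase, which switches on glycogen phosphorylase, while protein phosphatase 1 (PP1), held on the glycogen particle by targeting subunits, works the other way. The heart burns mainly fatty acids in the adult and leans more on glucose before birth and under load, and many steps are shared between a form typical of adult striated muscle and a form found more widely.

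Values are the deposited normalized counts. Whole reads could be recovered from them and came to 6933879 to 12187701 per library. Oma1 itself, the check of the genotype labels, stood at 6.24 ± 0.502 in treated KO hearts, 19.9 ± 2.16 in treated WT hearts and 7.42 ± 1.46 in untreated KO hearts (SD, n = 3 each). Transcripts of the mitochondrial genome took 38.2% to 42.5% of the signal in treated KO hearts, 36.7% to 37.3% in treated WT hearts and 33.9% to 34.6% in untreated KO hearts. A pair of libraries stood apart from their groups. Treated KO replicate 2 had the highest mitochondrial share, and treated WT replicate 3 had Nppa, the atrial natriuretic peptide gene, at 842, against 51.8 and 86.0 in its group. Defining markers of heart muscle were abundant in all 9 libraries, with a summed level of 9 markers of 46278 to 49252 in treated KO hearts, 40337 to 47237 in treated WT hearts and 49717 to 53815 in untreated KO hearts. The atrial myosin light chain gene Myl7 was at 0 to 0.417 in treated KO hearts, 0.192 to 0.275 in treated WT hearts and 131 to 279 in untreated KO hearts. The summed level of the 4 listed adipocyte markers was 0 to 0.415 in treated KO hearts, 0 to 0.192 in treated WT hearts and 12.1 to 45.7 in untreated KO hearts. In bulk tissue, fewer cells of a type and less RNA per cell cannot be told apart.

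Per kilobase of the longest coding transcript, glycolytic enzymes of muscle were the most abundant of the 32 genes. Aldoa, the aldolase of muscle, led with a level of 1157 ± 53.2 per kilobase in treated KO hearts, 1041 ± 37.2 in treated WT hearts and 900.2 ± 10.9 in untreated KO hearts. Ldhb, the lactate dehydrogenase subunit typical of the heart, followed at 749 ± 67.3 per kilobase in treated KO hearts, 656 ± 82.0 in treated WT hearts and 864 ± 28.5 in untreated KO hearts. Eno3, the enolase of striated muscle, stood at 671 ± 17.5 per kilobase in treated KO hearts, 662 ± 23.3 in treated WT hearts and 634 ± 22.0 in untreated KO hearts, within the spread of Ldhb in treated WT hearts. The insulin-responsive glucose transporter gene Slc2a4 stood at 94.1 ± 9.22 per kilobase in treated KO hearts, 97.4 ± 9.73 in treated WT hearts and 125 ± 1.2 in untreated KO hearts. Slc2a1, the transporter that works without insulin, was the lowest of the 31 tested genes per kilobase, at 3.73 ± 0.274 in treated KO hearts, 4.51 ± 0.650 in treated WT hearts and 3.85 ± 0.516 in untreated KO hearts, and rested on 84 to 171 reads per library. Glycogen genes spanned a wide range, with Pygm, the glycogen phosphorylase of muscle, at 234 ± 16.2 per kilobase in treated KO hearts and Phkb, the β subunit of phosphorylase kinase, at 8.32 ± 1.09.

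**Figure D1:**
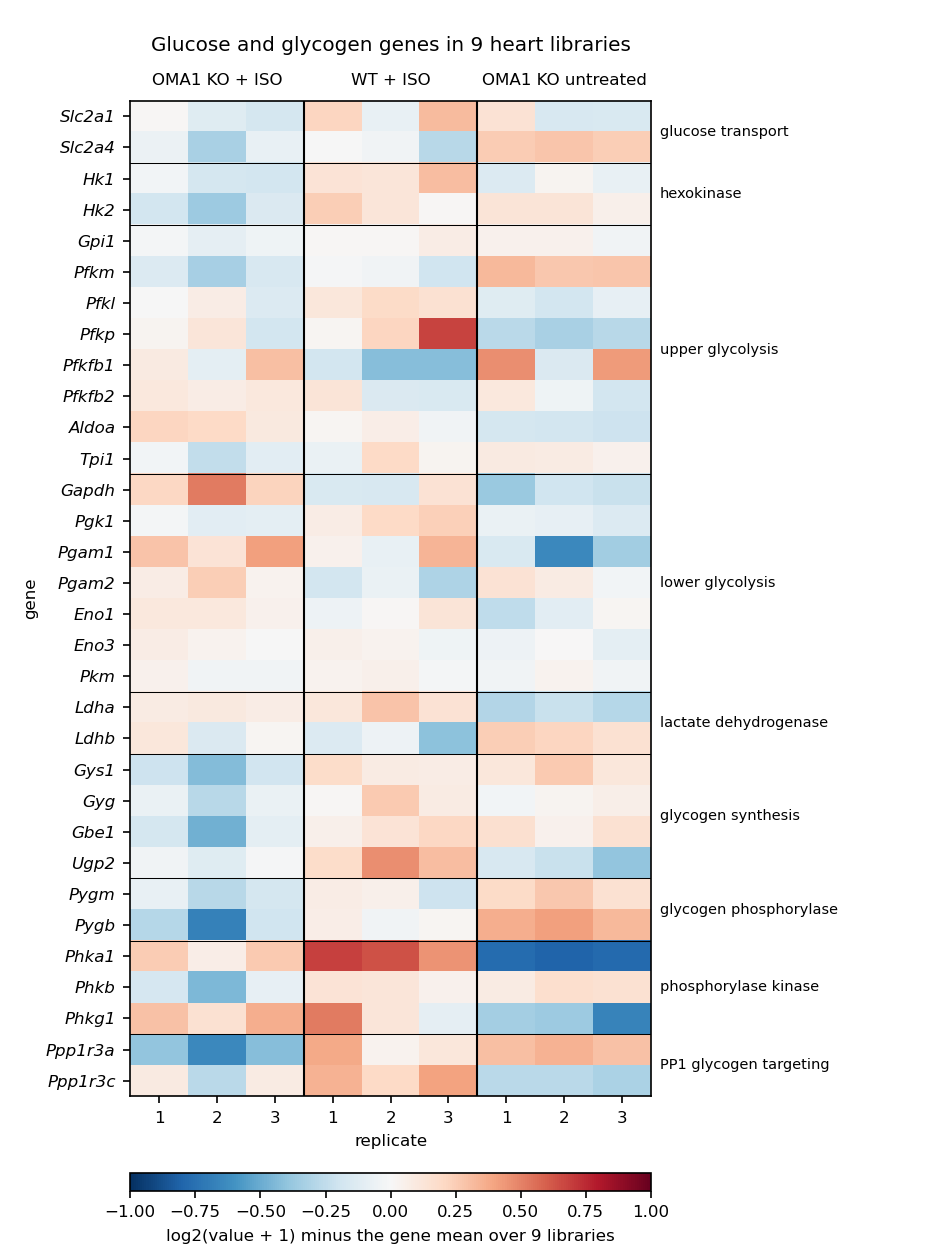
Each row is a gene, grouped by step, and each column a library; colour gives log2(value + 1) minus the gene's mean over the 9 libraries, red above and blue below. Phka1 is bluest in the 3 untreated KO libraries, Ppp1r3a, Gys1 and Hk2 are blue in the 3 treated KO libraries, and Pfkfb1 is shown although it was not tested.

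Promoter sequence is shown for Hk2, Ldha, Pgk1 and Ppp1r3a, genes chosen for the motif matches described below. Hk2 and Pgk1 were lower in treated KO than in treated WT hearts, and Ldha was higher in treated than in untreated KO hearts. Ppp1r3a had the largest difference between the treated groups. The letters ACGTG are the core of the element bound by the hypoxia-inducible factors, which are textbook regulators of glycolytic genes. They were searched on both strands of the 250 bases before each RefSeq start (GRCm38.p6), where a core on the other strand reads CACGT. The E-box of Myc and related factors, CACGTG, holds the core on both strands and was counted under both motifs. A window was found for 31 of the 32 genes; Slc2a4 had none in the table used. At least 1 ACGTG core was present for 13 of these 31 genes (41.9%), against 18.5% of the 27025 genes with a window, and by window in 16 of 47, against 16.6% of all 32851. The base composition of the windows was not matched in this comparison. An E-box was present for 4 genes (12.9%, against 6.86% of all genes): Pfkfb2, Pfkm, Ldha and Ppp1r3c. The A/T-rich element bound by the MEF2 factors of muscle, in either of a pair of common spellings, was found for Ppp1r3a alone (3.23%, against 0.281% of all genes). The nuclear receptor site TGACCTTTG was found for Pfkfb1 alone (3.23%, against 0.485%). Each sequence runs 5′ to 3′ on the strand of the gene and ends at the base before its start, with every match in capitals. The Hk2 window is chr6:82774455-82774704 on the minus strand and has cores that begin 226 and 52 bases before the start. That of Ldha, chr7:46845554-46845803 on the plus strand, has E-boxes 145 and 48 bases and a further core 34 bases before it. That of Pgk1, chrX:106186850-106187099 on the plus strand, has cores 150 and 131 bases before it. That of Ppp1r3a, chr6:14755275-14755524 on the minus strand, has its MEF2-type element 100 bases before it. For each of these genes, the window printed was the one without annotated exons that held the most matches. Another Ldha window had no core. Gyg, Gys1, Gbe1, Hk1, Phka1 and Phkb, lower in treated KO than in treated WT hearts, had no core in any window. A match describes the letters only.
Hk2: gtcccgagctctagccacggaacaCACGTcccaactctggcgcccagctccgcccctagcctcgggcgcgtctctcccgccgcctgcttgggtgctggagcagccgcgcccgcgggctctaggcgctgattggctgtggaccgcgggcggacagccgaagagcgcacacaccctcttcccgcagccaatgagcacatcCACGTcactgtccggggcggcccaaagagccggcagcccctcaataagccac
Ldha: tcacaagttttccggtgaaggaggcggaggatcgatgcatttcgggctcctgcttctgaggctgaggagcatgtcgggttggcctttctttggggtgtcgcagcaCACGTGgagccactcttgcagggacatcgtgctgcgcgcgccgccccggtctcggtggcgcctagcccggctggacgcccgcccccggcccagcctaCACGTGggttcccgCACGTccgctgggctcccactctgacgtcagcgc
Pgk1: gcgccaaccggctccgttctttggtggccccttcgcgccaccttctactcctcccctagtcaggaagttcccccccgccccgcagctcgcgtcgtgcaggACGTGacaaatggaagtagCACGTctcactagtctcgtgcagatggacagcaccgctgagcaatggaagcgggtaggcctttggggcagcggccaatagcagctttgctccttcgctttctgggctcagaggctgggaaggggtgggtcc
Ppp1r3a: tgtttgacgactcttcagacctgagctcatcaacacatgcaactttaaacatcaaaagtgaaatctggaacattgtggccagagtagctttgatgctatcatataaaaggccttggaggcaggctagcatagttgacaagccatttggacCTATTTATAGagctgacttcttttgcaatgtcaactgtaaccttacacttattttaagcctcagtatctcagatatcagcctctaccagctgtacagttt

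Treated KO hearts held less mRNA for storing glycogen and for its control than treated WT hearts. All 4 genes of glycogen synthesis, both PP1 targeting subunits, both hexokinases, 2 of 3 phosphorylase kinase subunits, Pygb and Pgk1 were lower, and 2 genes of lower glycolysis, Gapdh and Pgam2, were higher. Most differences were modest: Ppp1r3a alone passed the threshold with a difference of at least 1.5-fold, as did 2.82% of all genes. In all, 14 of 31 genes passed (45.16%), against 27.8% of the 8543 genes tested by limma at an adjusted p under 0.05. By direction, 12 were lower and 2 higher, where 15.9% and 12% of all genes were. The median log2 difference of the 31 genes, treated KO minus treated WT, was -0.17, against -0.01 for all genes; it was -0.11 without treated WT replicate 2, -0.12 without treated KO replicate 2 and -0.08 with cyclic loess scaling. The values of the groups did not overlap for 18 of the 31, and for 43.6% of all genes. With a minimum value of 50, 13 of 28 genes of the set passed, a share similar to the 1236 of all 2661 then tested. Of these, 11 of the set and 811 of all genes were lower, and the medians were -0.16 and -0.08.

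Ppp1r3a (ENSMUSG00000042717, chromosome 6, 14713977 to 14755274) encodes the subunit that holds PP1 on glycogen and on the sarcoplasmic reticulum of striated muscle. It stood at 80.3, 67.5 and 78.6 in treated KO hearts, 138, 109 and 115 in treated WT hearts and 131, 135 and 129.9 in untreated KO hearts. All 3 treated KO libraries lay below all 6 others, while the other 2 groups overlapped. The log2 difference between the treated groups was -0.66 ± 0.09 (SE; limma adjusted p = 0.00067). Ppp1r3c (chromosome 19, 36731731 to 36736653) encodes a PP1 targeting subunit found in many tissues. Its values were 124, 96.7 and 123 in treated KO hearts, 149, 134 and 154 in treated WT hearts and 96.6, 96.4 and 93.4 in untreated KO hearts. The 3 groups formed 3 steps without overlap, with treated KO replicate 2 only just above the untreated libraries. Between the treated groups it was lower by a log2 difference of -0.35 ± 0.09 (limma adjusted p = 0.016).

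The synthesis genes were led by Gys1 (ENSMUSG00000003865, chromosome 7, 45434844 to 45456619), the glycogen synthase of muscle. Gys1 was at 84.9, 72.5 and 86.1 in treated KO hearts, 112, 104 and 104 in treated WT hearts and 107, 118 and 107 in untreated KO hearts. Treated KO hearts lay below both other groups, which overlapped each other, and differed from treated WT hearts by -0.40 ± 0.08 (limma adjusted p = 0.0043). Gbe1, the branching enzyme, had 37.2, 29.8 and 39.3 in treated KO hearts, 43.7, 46.5 and 48.6 in treated WT hearts and 47.2, 43.3 and 47.0 in untreated KO hearts. Treated KO hearts were again the lowest group, with a difference of -0.38 ± 0.10 between the treated groups (limma adjusted p = 0.011). Ugp2, which makes the UDP-glucose that glycogen synthase uses, was at 269.9, 254 and 275 in treated KO hearts, 315, 384 and 343 in treated WT hearts and 248, 237 and 210.1 in untreated KO hearts. Here treated WT hearts were the highest group, untreated KO hearts the lowest, and no groups overlapped. The log2 difference of Ugp2 between the treated groups was -0.38 ± 0.09 (limma adjusted p = 0.0072). Gyg, glycogenin, the protein on which a glycogen chain begins, differed least of the 4, with 115, 99.5 and 115 in treated KO hearts, 122, 146 and 128 in treated WT hearts and 119, 123 and 126 in untreated KO hearts. Its difference of -0.26 ± 0.08 passed at a limma adjusted p of 0.035.

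Among the genes of glycogen breakdown, Pygb, the phosphorylase form named for the brain, stood at 464, 352 and 492 in treated KO hearts, 591, 550.2 and 572 in treated WT hearts and 726, 751 and 704 in untreated KO hearts. The groups did not overlap, and treated KO hearts differed from treated WT hearts by -0.40 ± 0.10 (limma adjusted p = 0.012). Pygm had 721, 627 and 673 in treated KO hearts, 802, 786 and 658 in treated WT hearts and 867, 916 and 845 in untreated KO hearts. The treated groups overlapped, since treated WT replicate 3 lay within the KO range, and the difference of -0.15 (95% interval -0.33 to 0.04) did not pass. Phka1 (ENSMUSG00000034055, X chromosome, 102513975 to 102644246), the α subunit of phosphorylase kinase in muscle, was at 84.0, 73.5 and 84.3 in treated KO hearts, 113, 110.0 and 96.5 in treated WT hearts and 40.7, 40.0 and 40.6 in untreated KO hearts. The groups were again fully apart, and between the treated groups the difference was -0.40 ± 0.08 (limma adjusted p = 0.0042). Phkb had 46.3, 38.0 and 49.2 in treated KO hearts, 57.4, 56.8 and 53.9 in treated WT hearts and 55.2, 58.7 and 58.0 in untreated KO hearts. Treated KO hearts were the lowest group, by -0.33 ± 0.09 against treated WT hearts (limma adjusted p = 0.016). Phkg1, the catalytic subunit of muscle, had 43.4, 39.2 and 45.4 in treated KO hearts, 51.0, 38.3 and 33.1 in treated WT hearts and 27.7, 27.2 and 21.8 in untreated KO hearts. Its treated groups overlapped (0.08, 95% interval -0.21 to 0.37).

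**Figure D2:**
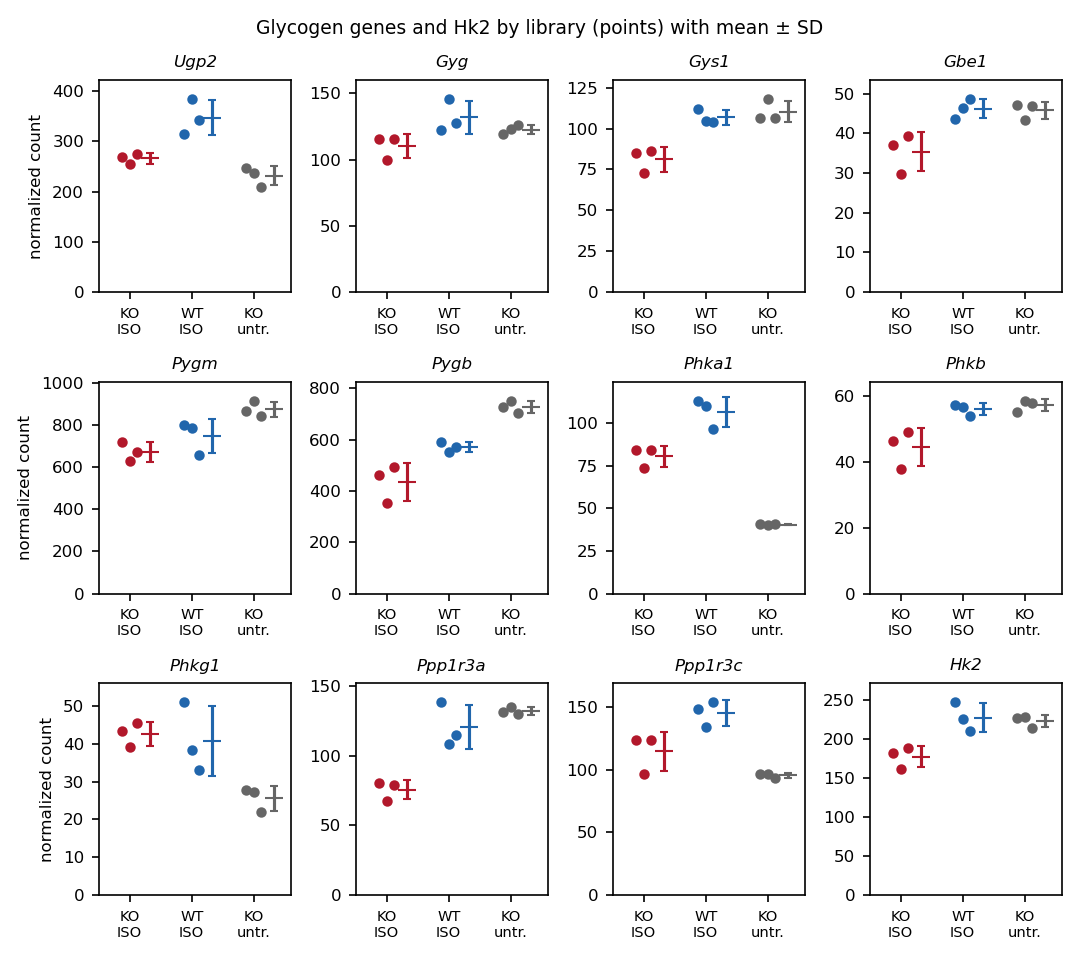
Normalized counts of 11 glycogen genes and Hk2 in the 3 groups; points are libraries in replicate order, and the bar and whiskers beside them give the mean and SD (n = 3), on axes that start at 0. Ppp1r3a, Gys1, Gbe1, Phkb and Hk2 are lowest in treated KO hearts, while Phka1 and Ugp2 are highest in treated WT hearts and lowest in untreated KO hearts.

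Both hexokinase genes were lower in treated KO hearts. Hk2 (ENSMUSG00000000628, chromosome 6, 82725025 to 82774454), the insulin-regulated form of muscle, was at 183, 162 and 188 in treated KO hearts, 247, 226 and 209.7 in treated WT hearts and 227, 228 and 215 in untreated KO hearts. Treated KO hearts lay below both other groups, by -0.36 ± 0.08 against treated WT hearts (limma adjusted p = 0.0069). Hk1, the widely expressed form, was at 126, 113 and 113 in treated KO hearts, 141, 140.0 and 159 in treated WT hearts and 117, 131 and 122 in untreated KO hearts. It was highest in treated WT hearts, and the difference between the treated groups was -0.32 ± 0.08 (limma adjusted p = 0.010). Neither transporter passed. Slc2a4 had 252, 211 and 249.6 in treated KO hearts and 263, 257 and 218 in treated WT hearts, a difference of -0.05 (95% interval -0.24 to 0.14). Slc2a1 had 13.2, 11.9 and 11.4 in treated KO hearts and 15.3, 12.3 and 16.4 in treated WT hearts, a difference of -0.25 (95% interval -0.52 to 0.02).

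Of the 7 tested genes of upper glycolysis, 0 passed in this comparison by limma, edgeR or voom, and 1, Aldoa, did by DESeq2 (adjusted p = 0.028); 4 had an unadjusted limma p under 0.05. Those 4 were Pfkl and Pfkp, the phosphofructokinases named for liver and platelets, with log2 differences of -0.17 ± 0.07 and -0.32 ± 0.13, Tpi1, triose phosphate isomerase, with -0.18 ± 0.08, and Aldoa, with 0.15 ± 0.07. In lower glycolysis Gapdh, glyceraldehyde 3-phosphate dehydrogenase, was at 352, 436 and 356 in treated KO hearts, 274, 272 and 337 in treated WT hearts and 236, 265 and 261 in untreated KO hearts. Treated KO replicate 2 was far above the rest, and treated WT replicate 3 reached close to the other 2 treated KO libraries. The difference was 0.37 ± 0.10 (limma adjusted p = 0.017). Pgam2, the phosphoglycerate mutase of muscle, had 307, 346 and 299.8 in treated KO hearts, 258, 279.9 and 237 in treated WT hearts and 324, 309 and 288 in untreated KO hearts. Treated WT hearts lay below both KO groups, and the difference between the treated groups was 0.30 ± 0.08 (limma adjusted p = 0.018). Pgk1, phosphoglycerate kinase, had 369, 348 and 351 in treated KO hearts, 395, 431 and 442 in treated WT hearts and 358, 355 and 342 in untreated KO hearts. Treated WT hearts lay above both KO groups, which overlapped, and the difference between the treated groups was -0.25 ± 0.07 (limma adjusted p = 0.018). Eno1, Eno3, Pgam1 and Pkm, the pyruvate kinase of muscle, did not pass, with differences from -0.04 for Pkm (95% interval -0.18 to 0.11) to 0.18 for Pgam1 (95% interval -0.10 to 0.45). Of the lactate dehydrogenases, Ldha differed by -0.10 (95% interval -0.24 to 0.05) and Ldhb by 0.19 (95% interval -0.01 to 0.40), and neither passed.

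Not all of the 14 calls held when single libraries were left out or transcript length was corrected for. Short transcripts tended to be higher in treated KO hearts: the median log2 difference was 0.12 over the 2124 genes with the shortest transcripts, 151 to 2127 bases, and -0.12 over the 2124 with the longest, 5002 to 106824 bases. With a correction for length and GC content, 11 of the 31 genes passed, all lower, and the calls of Gapdh (0.17, adjusted p = 0.25), Pgam2 (0.02, adjusted p = 0.88), Gbe1 (-0.26, adjusted p = 0.052), Phkb (-0.18, adjusted p = 0.14) and Ppp1r3c (-0.26, adjusted p = 0.057) were lost, while those of Pfkl (-0.26, adjusted p = 0.020) and Tpi1 (-0.28, adjusted p = 0.019) were gained. Without treated KO replicate 2, 11 genes were lower and 0 higher: Gapdh (0.27, adjusted p = 0.066), Pgam2 (0.24, adjusted p = 0.064), Gyg (-0.19, adjusted p = 0.12) and Phkb (-0.23, adjusted p = 0.052) no longer passed, and Pfkl did (-0.23, adjusted p = 0.048). Without treated WT replicate 2, Gapdh (0.32, adjusted p = 0.067), Pgk1 (-0.23, adjusted p = 0.055) and Gyg (-0.18, adjusted p = 0.14) no longer passed. Without treated WT replicate 1, Gapdh did not pass (0.32, adjusted p = 0.061) and Pfkp did (-0.46, adjusted p = 0.024). Without treated WT replicate 3, Pygm passed (-0.24, adjusted p = 0.027), and without untreated KO replicate 2 Gyg did not (-0.26, adjusted p = 0.052). With both libraries that stood apart left out, 13 genes passed, 2 higher and 11 lower, but not the same ones: Pgam2 (0.18, adjusted p = 0.072), Gyg (-0.21, adjusted p = 0.069), Gbe1 (-0.23, adjusted p = 0.057) and Ppp1r3c (-0.19, adjusted p = 0.059) no longer passed, and Pgam1 (0.36, adjusted p = 0.045), Pfkl (-0.22, adjusted p = 0.036) and Pygm (-0.19, adjusted p = 0.032) did. Of the synthesis genes Gys1 and Ugp2 then remained, and of the PP1 targeting genes Ppp1r3a. With scaling to the signal outside the mitochondrial genome, 15 passed, 4 higher and 11 lower: Aldoa (0.20, adjusted p = 0.027) and Ldhb (0.24, adjusted p = 0.042) were added and Gyg was lost (-0.21, adjusted p = 0.062).

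Markers of other cell types differed between the treated groups too. Endothelial markers summed to 1773 to 2153 in treated KO hearts and 1366 to 1508 in treated WT hearts, with 6 of 7 higher and 0 lower. Of the 9 heart muscle markers 2 were higher and 0 lower. The 7 fibroblast markers summed to 1844 to 1984 in treated KO hearts and 1723 to 4074 in treated WT hearts. The part of these cell types in the differences of the glucose and glycogen genes was not tested.

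**Figure D3:**
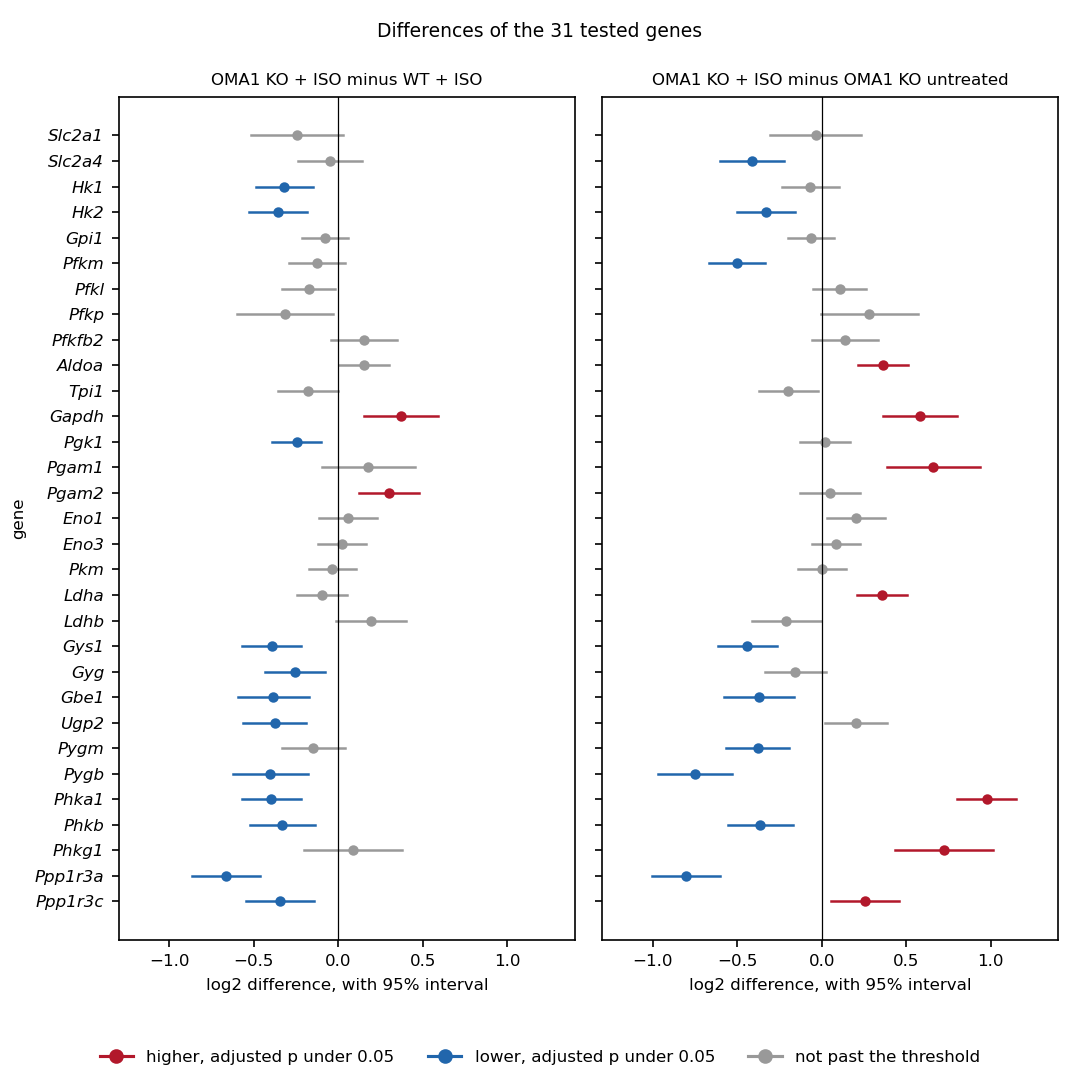
Log2 differences of the 31 tested genes, treated KO minus treated WT (left) and treated KO minus untreated KO (right), with 95% intervals of the limma fit that are not adjusted for multiple testing; red and blue mark genes higher and lower at an adjusted p under 0.05. On the left all 4 synthesis genes and both PP1 targeting genes lie below 0; on the right the 2 PP1 targeting genes lie on opposite sides.

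Between treated and untreated KO hearts genes of the set differed in both directions, about as often as all the genes tested. Treated KO hearts held less of Slc2a4, Hk2, Pfkm, Gys1, Pygm, Pygb, Gbe1, Phkb and Ppp1r3a, and more of Phka1, Phkg1, Ppp1r3c, Ldha, Pgam1, Gapdh and Aldoa. Forms typical of muscle were among both. Phka1 had the largest change in the set, a rise of 1.97-fold. Ppp1r3a fell by 0.80 on the log2 scale, and the changes of Pygb and Phkg1 were close to that in size. Among the 31 genes 16 passed (51.61%), with 7 higher and 9 lower, a share close to the 51.4% of all genes that did (23.9% higher and 27.4% lower). The median log2 difference was 0.00, against -0.02 for all genes, and 5 genes passed with at least 1.5-fold, as did 15.5% of all genes. The groups did not overlap for 22 of the 31 genes, and for 62.6% of all genes. With a minimum value of 50, 15 of 28 genes of the set passed, a smaller share than the 1765 of all 2661 then tested. Both comparisons described so far share the treated KO libraries.

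In glycogen metabolism, the log2 difference of Phka1 was 0.98 ± 0.08 (limma adjusted p = 1.6e-06) and that of Phkg1 was 0.72 ± 0.13 (limma adjusted p = 0.00061), whereas Phkb fell by 0.36 ± 0.09 (limma adjusted p = 0.0041). The 3 measured subunits of 1 enzyme thus moved in both directions. Ppp1r3a fell by 0.80 ± 0.09 (limma adjusted p = 1.8e-05), while Ppp1r3c rose by 0.25 ± 0.09 (limma adjusted p = 0.037). Of the phosphorylases, Pygb fell by 0.75 ± 0.10 (limma adjusted p = 5.8e-05) and Pygm fell by 0.38 ± 0.09 (limma adjusted p = 0.0025). Gys1 and Gbe1 fell by 0.44 ± 0.08 and 0.37 ± 0.10, while Gyg (-0.16 ± 0.08, adjusted p = 0.13) and Ugp2 (0.20 ± 0.09, adjusted p = 0.063) did not pass by limma. Ugp2 was called higher under 12 of 27 alternatives, DESeq2 (adjusted p = 0.028) and voom (adjusted p = 0.043) among them.

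In transport and upper glycolysis, Slc2a4 stood at 314, 319 and 313 in untreated KO hearts, above all 3 treated KO libraries given above, and fell by 0.41 ± 0.09 (limma adjusted p = 0.0016). Hk2 fell by 0.33 ± 0.08 (limma adjusted p = 0.0038). Pfkm, the phosphofructokinase of muscle, had 627, 549 and 617 in treated KO hearts, 684, 674 and 601 in treated WT hearts and 865, 833 and 837 in untreated KO hearts. The untreated libraries lay well above both treated groups, which overlapped, and Pfkm fell by 0.50 ± 0.08 in treated KO hearts (limma adjusted p = 0.00014). Pfkp had 63.5, 67.6 and 54.8 in treated KO hearts, 63.1, 72.4 and 100.2 in treated WT hearts and 51.3, 49.4 and 51.1 in untreated KO hearts. Every treated library was above every untreated one, but the difference for treated KO hearts, 0.28 ± 0.13, did not pass (adjusted p = 0.090). Aldoa had 1848, 1831 and 1698 in treated KO hearts, 1612, 1669.9 and 1555 in treated WT hearts and 1405, 1404 and 1375 in untreated KO hearts. The groups stood in 3 steps without overlap, and Aldoa rose by 0.36 ± 0.07 in treated KO hearts (limma adjusted p = 0.00075). Gpi1, glucose phosphate isomerase, Pfkl and Pfkfb2, the heart form of the fructose 2,6-bisphosphate enzyme, did not pass, with differences of -0.06, 0.11 and 0.14.

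In lower glycolysis and lactate formation, Ldha (ENSMUSG00000063229, chromosome 7, 46841475 to 46855627), the subunit typical of skeletal muscle, had 635, 641 and 629 in treated KO hearts, 647, 729 and 663 in treated WT hearts and 487, 513 and 489.5 in untreated KO hearts. Both treated groups lay above the untreated libraries, and Ldha rose by 0.35 ± 0.07 in treated KO hearts (limma adjusted p = 0.00079). Ldhb had 1057, 883 and 989.97 in treated KO hearts, 889.8, 942 and 736 in treated WT hearts and 1161, 1133 and 1087 in untreated KO hearts. All untreated libraries lay above all treated ones, but for treated KO hearts the difference of -0.21 ± 0.10 did not pass (adjusted p = 0.080). Pgam1, the widely expressed mutase, had 57.2, 51.6 and 62.5 in treated KO hearts, 48.1, 44.4 and 59.4 in treated WT hearts and 42.0, 29.5 and 36.5 in untreated KO hearts. It rose by 0.66 ± 0.13 in treated KO hearts (limma adjusted p = 0.00082), and Gapdh rose by 0.58 ± 0.10 (limma adjusted p = 0.00040). Pgk1, Pgam2, Eno1, Eno3, Pkm and Tpi1 did not pass by limma; Pkm was closest to 0, at 0.00 (95% interval -0.14 to 0.14). Eno1 lay at the threshold (0.20 ± 0.08, adjusted p = 0.0501) and was called higher under 15 of 27 alternatives, among them edgeR (adjusted p = 0.04), DESeq2 (adjusted p = 0.036) and voom (adjusted p = 0.037).

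Treated KO hearts lacked the Myl7 and adipocyte transcripts that the untreated KO libraries held at the levels given above. They had more of the dividing-cell markers (91.9 to 176, against 11.2 to 15.2 in untreated KO hearts). Endothelial markers were higher too (1773 to 2153, against 954 to 1063). Fibroblast markers summed to 1844 to 1984, against 1031 to 1125, and smooth muscle and pericyte markers to 958 to 1127, against 595 to 629. Of the 9 heart muscle markers 0 were higher and 2 lower. Drug, any pump and the tissue sampled cannot be told apart in this comparison. Of the calls, that of Ppp1r3c was lost without any 1 of treated KO replicates 1 and 3 and untreated KO replicates 1, 2 and 3 (log2 difference 0.19, 0.20, 0.26, 0.26 and 0.24, adjusted p = 0.15, 0.14, 0.073, 0.078 and 0.096). Tpi1 (-0.20, adjusted p = 0.056) passed without treated KO replicate 1 (-0.25, adjusted p = 0.040) or any treated WT library (-0.20, adjusted p = 0.040 to 0.048). Eno1 passed without treated WT replicate 3 (adjusted p = 0.033) or untreated KO replicate 3 (0.27, adjusted p = 0.022), Ldhb without treated WT replicate 3 (adjusted p = 0.022), Pfkp without treated WT replicates 1 or 3 (adjusted p = 0.049 and 0.012) and Ugp2 without treated WT replicate 2 (adjusted p = 0.048). With both libraries that stood apart left out, 20 genes passed, 10 in each direction, and with the length and GC correction 19 did, 8 higher and 11 lower, with Tpi1, Ldhb and Ugp2 added. With scaling to the signal outside the mitochondrial genome 22 passed, 13 higher and 9 lower, and with cyclic loess scaling 24 passed, 15 higher and 9 lower, with a median over the 31 genes of 0.20.

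**Figure D4:**
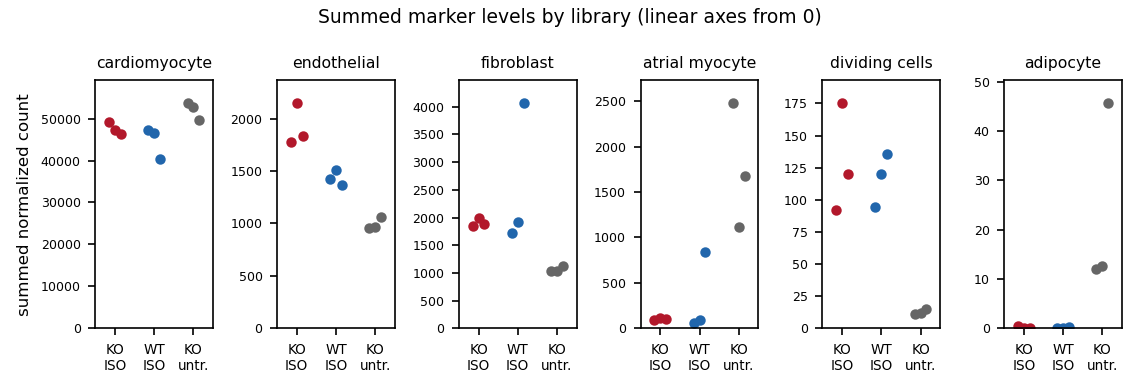
Summed normalized counts of 6 marker lists in each library, on linear axes that start at 0; points are libraries in replicate order. Atrial sums are 87.8 to 119 in treated KO hearts and 1111 to 2484 in untreated KO hearts, adipocyte sums are near 0 in all treated hearts, and treated WT replicate 3 stands out for fibroblast markers and, within the atrial sum, for Nppa alone (842 of 844).

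Treated WT and untreated KO hearts differ in both genotype and treatment, so neither is isolated. In treated WT hearts 11 of 31 genes were higher and 5 lower (51.61% passed, against 33.2% of all genes, 16.4% higher and 16.9% lower). With a minimum value of 50, 15 of 28 genes of the set passed, and 1152 of all 2661 then tested. The largest difference in the set was that of Phka1, 2.59-fold higher (log2 difference 1.37 ± 0.08, limma adjusted p = 2.5e-07). Ppp1r3c (0.60 ± 0.09), Pfkp (0.60 ± 0.13), Ugp2 (0.58 ± 0.09), Phkg1 (0.64 ± 0.13), Pgam1 (0.48 ± 0.13), Ldha (0.45 ± 0.07), Pfkl (0.28 ± 0.07), Pgk1 (0.26 ± 0.07), Hk1 (0.25 ± 0.08) and Aldoa (0.21 ± 0.07) were also higher. The lower genes were Ldhb (-0.40 ± 0.10), Pfkm (-0.37 ± 0.08), Slc2a4 (-0.36 ± 0.09), Pygb (-0.35 ± 0.10) and Pgam2 (-0.25 ± 0.08). Of glycogen synthesis, Ugp2 was the 1 gene to pass; Gys1 differed by -0.05 (95% interval -0.22 to 0.13), Gbe1 by 0.01 (95% interval -0.19 to 0.22) and Gyg by 0.10 (95% interval -0.08 to 0.28). Ppp1r3a differed by -0.14 (95% interval -0.34 to 0.06) and Hk2 by 0.03 (95% interval -0.15 to 0.20). Leaving out single libraries ended the calls of Hk1 (treated WT replicate 3 or untreated KO replicates 1 or 3, adjusted p = 0.088, 0.11 and 0.07), Aldoa (treated WT replicates 1 or 2 or any untreated KO library, adjusted p = 0.069 to 0.098), Pgam1 (untreated KO replicate 2, adjusted p = 0.061), Pgam2 (treated WT replicates 1 or 3 or untreated KO replicates 1 or 2, adjusted p = 0.064 to 0.13) and Pygb (treated WT replicate 2 or untreated KO replicates 1 or 2, adjusted p = 0.055 to 0.073). Pygm passed without treated KO replicate 2 or treated WT replicate 1 (adjusted p = 0.036 and 0.038). With both libraries that stood apart left out, 16 genes passed, 11 higher and 5 lower. With the length and GC correction 19 passed, 14 higher and 5 lower: Ppp1r3a was then lower (-0.22, adjusted p = 0.041), Gapdh (0.36, adjusted p = 0.018), Eno1 (0.28, adjusted p = 0.017) and Eno3 (0.18, adjusted p = 0.04) higher, and Pgam2 did not pass (-0.09, adjusted p = 0.34).

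At several steps the ratio of paired forms stood apart between the treated groups and untreated KO hearts. Most pairs set a more widely expressed or non-muscle form over the form of adult muscle. Ldha/Ldhb instead sets the subunit typical of skeletal muscle over that typical of the heart. Treated WT hearts also differ from untreated KO hearts in genotype. Untreated KO libraries held the Myl7 and adipocyte transcripts given above, and less of the endothelial and fibroblast markers than both treated groups. Their fibroblast markers summed to 1031 to 1125, against 1844 to 1984 in treated KO hearts and 1723 to 4074 in treated WT hearts. The part of cell types and of the tissue sampled in these ratios was not tested. As log2 ratios of (value + 1) within a library, which depend on how libraries were scaled through the added 1 alone, 8 pairs of genes were compared in 3 comparisons, with an exact two-sided permutation test over 3 against 3 libraries. The smallest p this design allows is 0.1, or 0.18 after Benjamini-Hochberg adjustment over the 24 tests, so none could pass. The ratio Ldha/Ldhb was -0.73, -0.46 and -0.65 in treated KO hearts, -0.46, -0.37 and -0.15 in treated WT hearts and -1.25, -1.14 and -1.15 in untreated KO hearts. No groups overlapped in it, and treated WT replicate 1 lay next to treated KO replicate 2. Per kilobase, Ldha made up 31.9% ± 2.14 of the sum of both subunits in treated KO hearts, 36.4% ± 2.55 in treated WT hearts and 24.1% ± 0.778 in untreated KO hearts. The ratio Pfkp/Pfkm was -3.28, -3.00 and -3.47 in treated KO hearts, -3.42, -3.20 and -2.57 in treated WT hearts and -4.05, -4.05 and -4.01 in untreated KO hearts. The treated groups overlapped each other and lay above every untreated library. The muscle form Pfkm accounted for 83.2% ± 2.09 of the 3 phosphofructokinases per kilobase in treated KO hearts, 82.1% ± 2.5 in treated WT hearts and 88.8% ± 0.287 in untreated KO hearts.

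The same arrangement, with both treated groups above the untreated one, held for Pfkl/Pfkm, Pgam1/Pgam2 and Slc2a1/Slc2a4 (exact permutation p = 0.1 in each of these comparisons with untreated KO hearts). The mean log2 ratio Pfkl/Pfkm was -2.57 ± 0.20 in treated KO hearts, -2.52 ± 0.11 in treated WT hearts and -3.18 ± 0.05 in untreated KO hearts. That of Pgam1/Pgam2 was -2.46 ± 0.24 in treated KO hearts, -2.33 ± 0.33 in treated WT hearts and -3.07 ± 0.24 in untreated KO hearts. That of Slc2a1/Slc2a4 was -4.18 ± 0.15 in treated KO hearts, -3.98 ± 0.31 in treated WT hearts and -4.55 ± 0.18 in untreated KO hearts, and Slc2a4 made up 95.5% to 97.0% of both transporters per kilobase in each group mean. The KO groups were barely apart in this ratio, with treated KO replicate 3 at -4.333 and untreated KO replicate 1 at -4.347. Slc2a1 itself did not pass against untreated KO hearts in treated KO (-0.04) or treated WT hearts (0.21). Hk1/Hk2 was higher in treated KO than in untreated KO hearts without overlap (-0.59 ± 0.12 in treated KO hearts and -0.85 ± 0.09 in untreated KO hearts) but overlapped in the other comparisons. Pygb/Pygm was lower in treated KO than in untreated KO hearts without overlap (-0.64 ± 0.19 in treated KO hearts and -0.27 ± 0.02 in untreated KO hearts), with treated WT hearts between them at -0.38 ± 0.16. Eno1/Eno3 overlapped in all 3 comparisons (-2.96 ± 0.02 in treated KO hearts, -2.99 ± 0.14 in treated WT hearts and -3.08 ± 0.17 in untreated KO hearts).

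**Figure D5:**
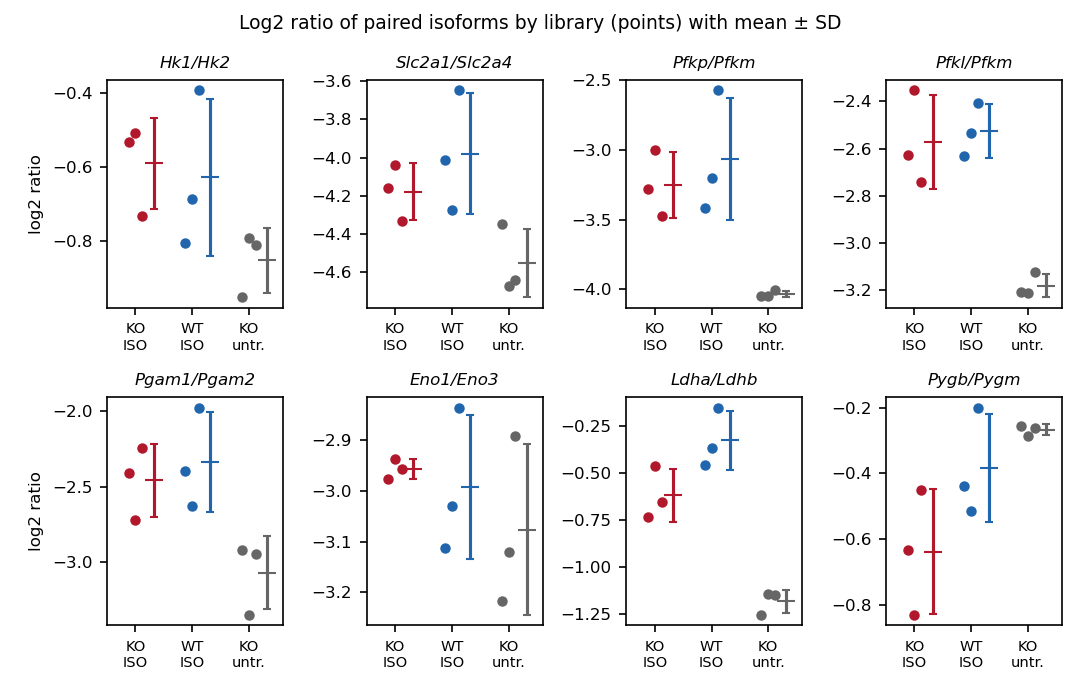
Log2 ratio of 2 genes of the same step in each library; points are libraries in replicate order, and the bar and whiskers give the mean and SD (n = 3); the axes do not start at 0. Ldha/Ldhb, Pfkp/Pfkm, Pfkl/Pfkm, Pgam1/Pgam2 and Slc2a1/Slc2a4 are higher in both treated groups than in untreated KO hearts, and Eno1/Eno3 overlaps.

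Other genes around the pathway were counted in lists written from textbook knowledge, with earlier results of these data already known. Of all genes, 27.8% passed between the treated groups and 51.4% between the KO groups. Of 16 further glycogen genes tested, 1 was higher and 6 lower in treated KO than in treated WT hearts, and 3 were higher and 10 lower than in untreated KO hearts, with median log2 differences of -0.25 and -0.38. Pgm2, a phosphoglucomutase, averaged 115 ± 13.2 in treated KO hearts, 159 ± 4.71 in treated WT hearts and 178 ± 5.0 in untreated KO hearts. Gsk3b, a kinase that inhibits glycogen synthase, averaged 43.2 ± 4.68 in treated KO hearts, 59.8 ± 1.07 in treated WT hearts and 57.9 ± 1.60 in untreated KO hearts. Both were lower in treated KO hearts than in either other group. Pgm5, a relative of phosphoglucomutase known from muscle cell contacts, was lower too (-0.47 ± 0.09 against treated WT and -0.76 ± 0.09 against untreated KO hearts). Gaa, the lysosomal enzyme that degrades glycogen, was lower than in untreated KO hearts (-0.53 ± 0.07) but did not pass between the treated groups (-0.17 ± 0.07, adjusted p = 0.084).

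Of 10 tested genes of glucose transporter traffic and uptake, 2 were higher and 2 lower in treated KO than in treated WT hearts, and 2 higher and 7 lower than in untreated KO hearts. Lnpep, an aminopeptidase carried in the vesicles of the insulin-responsive transporter, averaged 27.3 ± 6.95 in treated KO hearts, 65.3 ± 5.71 in treated WT hearts and 74.3 ± 10.7 in untreated KO hearts. Rab10, a GTPase of the same vesicles, averaged 100.1 ± 7.37 in treated KO hearts, 123 ± 4.09 in treated WT hearts and 132 ± 2.47 in untreated KO hearts. Both were lower in treated KO hearts than in either other group, by -1.25 ± 0.15 and -0.30 ± 0.07 against treated WT hearts. Stx4a, a syntaxin of vesicle fusion, and Arrdc4, an arrestin-like protein that restrains glucose uptake, were higher than in treated WT hearts by 0.39 ± 0.08 and 0.34 ± 0.11. Txnip, a relative of Arrdc4 that also restrains uptake, averaged 361 ± 73.9 in treated KO hearts, 337 ± 25.7 in treated WT hearts and 746 ± 71.2 in untreated KO hearts, so the untreated hearts stood apart from both treated groups. Tbc1d4, a target of the insulin-activated kinase Akt, was lower in treated than in untreated KO hearts (-0.45 ± 0.08).

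Among 9 tested side enzymes of glycolysis, 0 were higher and 1 lower in treated KO than in treated WT hearts, and 0 higher and 5 lower than in untreated KO hearts. Gpd1, the cytosolic glycerol 3-phosphate dehydrogenase, averaged 27.7 ± 1.82 in treated KO hearts, 32.6 ± 3.39 in treated WT hearts and 69.8 ± 9.87 in untreated KO hearts. Ldhd, which acts on D-lactate, averaged 23.9 ± 4.33 in treated KO hearts, 27.9 ± 1.75 in treated WT hearts and 56.8 ± 2.0 in untreated KO hearts. Fbp2, the fructose bisphosphatase of muscle, averaged 9.99 ± 1.32 in treated KO hearts, 8.75 ± 1.83 in treated WT hearts and 22.2 ± 3.26 in untreated KO hearts. All 3 were lower in treated than in untreated KO hearts and did not pass between the treated groups. Gpd1l, a relative of Gpd1, was the 1 gene lower in treated KO than in treated WT hearts (-0.46 ± 0.08). Of 8 pentose phosphate genes 2 were higher and 0 lower than in treated WT hearts: Tkt, transketolase (0.53 ± 0.13), and Pgls, the lactonase (0.34 ± 0.08). Against untreated KO hearts H6pd was lower (-0.60 ± 0.08) and Pgd higher (0.27 ± 0.08), 1 in each direction. Of 6 hexosamine genes, Mgea5, the enzyme that removes O-linked N-acetylglucosamine, was the 1 to pass between the treated groups (-0.24 ± 0.07). Gfpt1 and Gfpt2, alternative forms of the first enzyme of the hexosamine route, moved apart between treated and untreated KO hearts (-0.42 ± 0.08 and 1.03 ± 0.12). Of the polyol genes, Akr1b3, aldose reductase, and Sord, sorbitol dehydrogenase, were lower in treated than in untreated KO hearts (-0.35 ± 0.09 and -0.50 ± 0.13), and neither passed between the treated groups.

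Of 13 tested genes for transcription factors known from glycolytic or transporter genes, 2 were higher and 1 lower in treated KO than in treated WT hearts, and 1 higher and 5 lower than in untreated KO hearts. These shares, 23.1% and 46.2%, were not above those of all genes. Mlxipl, the glucose-responsive factor also called ChREBP, averaged 36.3 ± 9.05 in treated KO hearts, 22.3 ± 2.87 in treated WT hearts and 23.9 ± 1.21 in untreated KO hearts, and was higher than in either. Hif1a, the α subunit of a hypoxia-inducible factor, averaged 62.5 ± 6.65 in treated KO hearts, 79.6 ± 9.40 in treated WT hearts and 91.6 ± 5.99 in untreated KO hearts and was lower in treated KO hearts than in either. Tfeb, a factor of lysosomal genes, was higher than in treated WT hearts (0.32 ± 0.10). Klf15, a factor that raises Slc2a4 in muscle, averaged 20.3 ± 2.69 in treated KO hearts, 21 ± 3.3 in treated WT hearts and 35.0 ± 2.30 in untreated KO hearts, with both treated groups below the untreated one. Mef2a and Mef2d, of the MEF2 family, were lower in treated than in untreated KO hearts (-0.37 ± 0.08 and -0.30 ± 0.07). Of the 13 genes with an ACGTG core before their start, 0 were higher and 5 lower in treated KO than in treated WT hearts, and 4 were higher and 4 lower than in untreated KO hearts; of the 18 without, of which 17 were tested, 2 were higher and 7 lower, and 3 higher and 4 lower.

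Some of the genes share sequence with other annotated genes, and reads from the shared parts cannot be assigned with certainty. The share of 50-base words of a gene's transcripts that also occur in other genes was 53.9% for Pgk1, 36.2% for Pgam1, 26.0% for Eno1, 25.8% for Pkm, 24.7% for Gapdh and 21% for Ldhb, so their values are less certain. It was 0% for Ppp1r3a, Ppp1r3c, Gyg, Gbe1, Ugp2, Phka1, Phkb, Hk1 and Hk2 and 0.739% for Gys1. The labels do not say whether reads were counted by strand. Exons of antisense genes covered 11.5% of those of Gpi1, 9.68% of those of Phkg1 and 6.47% of those of Gys1. Exons of other genes on the same strand covered 17.4% of those of Pfkfb2, 15.3% of those of Pkm and 10.2% of those of Pfkm. For Pkm, that gene was Gm49759, also the one that shared most of its words.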

How the data were processed

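RNA of heart tissue was extracted with TRIzol and made into TruSeq libraries, per the labels' protocols. Cutadapt, RSEM 1.17 and limma and the genome build GRCm38 are named in the submitters' processing notes; no other setting is stated there. The deposited signal values are normalized expected counts, 1 per gene and library; 100% were whole multiples of a step for that library (tolerance 0.02 of a read). The 232 rows without a gene name have an ID and were kept. The 32 genes and all lists were chosen with earlier results of these data known. Values were taken as log2(value + 1), which understates changes of low genes, and limma 3.58.1 under R 4.3.3 tested the genes with 10 or more in 3 or more of 9 libraries, using group means, a shared spread with a trend, two-sided tests and Benjamini-Hochberg adjustment over 8543 genes at a threshold of 0.05. The code was tested on simulated data. Alternatives included other pseudocounts, filters and scalings, edgeR 4.0.16, DESeq2 1.42.0 and voom on the recovered reads, a spline correction (5 degrees of freedom) for transcript length and GC content, the replicate number as a block and each library left out; leaving out both libraries that stood apart was added after seeing the data. Every listed gene of the set is described, with up to 4 genes of smallest p per list in each comparison with treated KO hearts; 1 gene that this rule names is not reported here. Positions and transcripts are from GENCODE M21 and promoters from RefSeq. No 2 libraries agreed within counting noise. Where the labels name no separate animals, p-values measure the spread between these libraries only, and read counts cover counting error only.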

Additional observations from a re-analysis of the deposited data

How the results depend on the processing

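Between treated KO and treated WT hearts 2379 genes passed, 1023 higher and 1356 lower. With a minimum value of 50, 1236 of the 2661 genes then tested passed. The count was 959 at an adjusted p of 0.01 and 1574 with the length and GC correction. It was 1342 to 2380 with 1 library left out, lowest without treated KO replicate 2. The 14 members of the set that passed became 5 at an adjusted p of 0.01 and 11 to 15 with 1 library left out. Between treated and untreated KO hearts 4388 genes passed (2043 higher), 1765 of 2661 with a minimum of 50 and 3630 to 4624 with 1 library left out. Between treated WT and untreated KO hearts 2839 passed (1399 higher), and 1152 of 2661 with a minimum of 50. The count was 1642 at an adjusted p of 0.01 and 2035 to 3114 with 1 library left out. A higher minimum leaves fewer genes to test, of which a larger share passed in each comparison. For the other changes the cause was not tested. Scaling without mitochondrial transcripts turned the splits to 1390 higher and 1065 lower, 2834 and 1669, and 1806 and 1113 in the 3 comparisons in that order; between the KO groups the median of all genes was then 0.08 rather than -0.02, and that of the 31 genes 0.11.

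Correlations between the deviations of same-numbered libraries of different groups were -0.14 to 0.18. Whether the replicate numbers pair the samples was not tested beyond these values. With the replicate number as a block, 13, 16 and 16 of the 31 genes passed in the 3 comparisons, and 2258, 4316 and 2755 of all genes; with the block and the length and GC correction together 1416 of all genes passed in the first comparison. Of 31 gene results per comparison, 13, 19 and 20 kept their direction, where called, and their side of the threshold under every alternative that tested them (27, or 26 for Slc2a1, Gbe1 and Phkg1, which a minimum of 50 leaves out), and 0 called results reversed. Group means rest on 3 libraries, so the exact tests of ratios could not pass, and the least abundant gene tested rested on 84 to 171 reads.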

Other observations

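In a group of 3, any library stands at an end for many genes, and those named here were picked after seeing the values. Treated WT replicate 3, the library with high Nppa, had the highest fibroblast sum of the 9 libraries (4074) and the lowest heart muscle sum (40337). It also stood at an end of its group for several genes of glucose metabolism. Pfkp was at 100.2 in it, against 63.1 and 72.4 in replicates 1 and 2, Ldhb at 736, against 889.8 and 942, and Pygm at 658, against 802 and 786. Its log2 ratios of Ldha/Ldhb (-0.15), Pfkp/Pfkm (-2.57), Pgam1/Pgam2 (-1.98), Slc2a1/Slc2a4 (-3.65) and Hk1/Hk2 (-0.39) were the highest of all 9 libraries. In treated KO replicate 2, the library with the highest mitochondrial share, Pygb (352), Gbe1 (29.8), Phkb (38.0), Gys1 (72.5) and Hk2 (162) were the lowest of the 9 libraries and Gapdh (436) the highest.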
